A study of Mus musculus with 113 samples.

Results

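In SFEB culture, in which cells float as aggregates in medium without serum, mouse embryonic stem (ES) cells pass through an epiblast-like state before they form neuroectoderm. The passage between these states was examined here with 9 RNA-seq samples of whole SFEB populations, 9 of 22 SFEB populations and of 113 samples in the study. They were chosen by collection time, in windows that follow the study's stages: 5 samples of 34, 38, 42.5, 54.5 and 60 h made up the earlier window and 4 samples of 84, 92, 103 and 106 h the later window. All 9 came from unedited R1 mouse ES cells, which the authors grew once without feeder cells and then suspended in GKSR medium in petri dishes. The labels name no added agent, and replating at day 6 came after both windows.

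The 9 samples belonged to 2 series of cultures. The first series gave the samples of 34, 42.5, 54.5, 92 and 103 h and the parallel series those of 38, 60, 84 and 106 h. Each sample was 1 library at its own time, so no time point had a replicate. The spread used below is the spread between times and series within a window, and a p-value measures a difference against that spread only. The study drew those stages by clustering the genes that differed between times in its population transcriptomes, and named them by marker genes. Neither the number of genes called between the windows nor the direction of those markers is therefore independent evidence.

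Epiblast cells of the implanting embryo keep Oct4 (*Pou5f1*) and Sox2 but have lost most of the naive network of Klf4, Esrrb and Rex1 (*Zfp42*), and they express Fgf5, Otx2 and the de novo DNA methyltransferases. Cells that become neuroectoderm lose Oct4, keep Sox2, gain Sox1, and replace E-cadherin (*Cdh1*) by N-cadherin (*Cdh2*). In the embryo low Nodal and BMP signals favour this step, and Notch, Wnt, FGF and retinoic acid signals then pattern and maintain the neural plate.

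Markers of both states were checked in the 2 windows. In the earlier window all 6 epiblast markers (*Fgf5*, *Dnmt3b*, *Otx2*, *Pou3f1*, *Pou5f1* and *Utf1*) were above 1 FPKM in every sample, and they summed to between 1238 and 1600.3 FPKM. In the later window all 6 were still above 1 FPKM in every sample, at sums from 287 to 915. Of 7 neuroectoderm markers 5 had a row in the table (*Sox1*, *Pax6*, *Hes5*, *Zfp521* and *Lhx2*); 2 of these exceeded 1 FPKM in all samples of 34–60 h and 5 in all samples of 84–106 h. Their sums went from a range of 7.98–18.7 to one of 23.2–109.7 FPKM without overlap. The later window thus held neuroectoderm transcripts beside epiblast transcripts. In whole populations a lower level from fewer cells and one from less RNA per cell cannot be told apart.

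Markers of other cell types were summed in the same way. Non-neural ectoderm markers summed to at most 1.09 FPKM in the earlier and 1.76 FPKM in the later window, over the 2 of 5 that had a row. The 2 neural crest markers with a row summed to 3.87–5.88 and 2.09–4.92 FPKM. The 6 naive markers summed to 96.9–273 and 36.2–123 FPKM, which overlapped. Of 5 neuronal markers 4 had a row, and these summed to 68.3–121 and 83.6–160.2 FPKM, and none of the 4 passed the test. Fibroblast markers, which would show feeder cells, summed to 779 FPKM at 0 h of the parallel series, to 16.7–60.9 FPKM at 34–60 h and to 14–30.0 FPKM at 84–106 h. The 3 mesoderm markers with a row went from 0.585–4.30 to 5.41–32.5 FPKM and the 3 endoderm markers from 0.431–2.83 to 2.92–13.8 FPKM, and *Mesp1*, *Tbx6*, *Sox17* and *Sox7* had no row.

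Of 11849 genes tested (above 1 FPKM in at least 4 of the 9 samples), 5603 differed between the windows at an adjusted p below 0.05, which is 47.3%. Higher levels at 84–106 h were called for 3361 genes (28.4%) and lower levels for 2242 genes (18.9%), and for 4384 genes (37.0%) the 2 windows did not overlap, 4225 of them also called (35.7%). The split between directions depended on the scaling: 60.0% of the called genes were higher on the deposited scale, 48.8% after quantile normalization (2579 higher, 2702 lower) and 41.01% after median centring (2388 higher, 3435 lower), which moved the median difference of all genes by -0.12. Of the genes tested, 677 (5.71%) were above 1 FPKM in fewer than 4 earlier samples and so entered the test only with the help of later samples, which favours rises. In gene lists such members numbered from 0 to 7. Changes of at least 1 on the log2 scale were called for 574 genes upward and 318 downward, and changes of at least 2 for 57 and 22. All differences below are later minus earlier window on log2(FPKM + 1), given with their standard error (SE); this scale understates changes of genes near 0. Sample values are FPKM in order of time, 34, 38, 42.5, 54.5 and 60 h and then 84, 92, 103 and 106 h.

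Both series moved in the same direction for 5601 of the 5603 called genes. These genes were called on both series together, which favours such agreement, so this count is a description. The parallel series moved less far. Among the 892 genes called with a difference of at least 1, the change was smaller in the parallel series for 843 (94.5%), and at the median it was 56.9% of that in the first series. The sample of 84 h was the nearest of its window to the earlier window in 766 of these 892 genes. A term for a different window effect in the 2 series was past an adjusted p of 0.05 for 0 of 11849 genes in limma, and past an unadjusted p of 0.05 for 1251 (10.6%). In limma the first series alone gave 4507 called genes (38.0%; 48.9% at an unadjusted p below 0.05). With the parallel series alone, 2 samples against 2, 0 genes were called, and 3327 (28.1%) had an unadjusted p below 0.05.

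**Figure D1:**
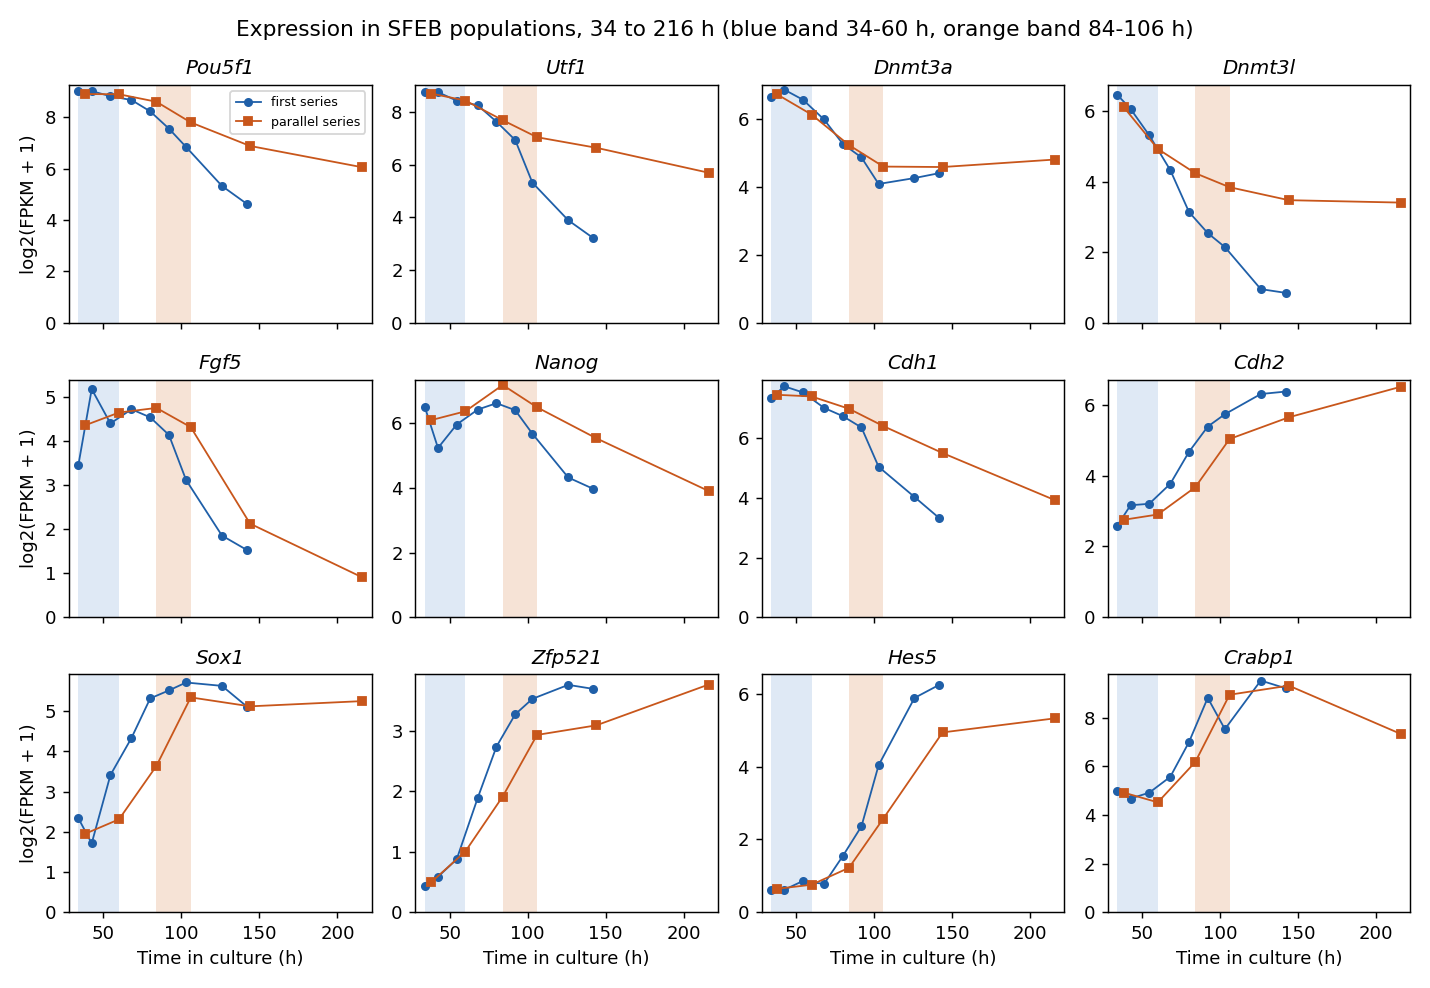
Expression of 12 genes in SFEB populations from 34 to 216 h. The horizontal axis is time in culture in hours and the vertical axis log2(FPKM + 1), points are single samples, lines join the samples of a series, and the bands mark the 2 windows; *Pou5f1*, *Utf1*, *Dnmt3a*, *Dnmt3l* and *Cdh1* fall between the bands, *Cdh2*, *Sox1*, *Zfp521*, *Hes5* and *Crabp1* rise, and *Fgf5* and *Nanog* have windows that overlap.

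The 10 largest rises among genes with at least 10 FPKM and windows that did not overlap were *Ptn*, *Crabp1*, *Sox21*, *Greb1l*, *Fst*, *Frzb*, *Fam181b*, *Rgma*, *Olig3* and *Hoxb2*, with log2 differences from 3.45 down to 2.77. Of these, *Sox21*, *Frzb*, *Fam181b*, *Rgma* and *Olig3* entered the test only with the help of later samples, so their ranks are a description. *Ptn*, a secreted growth factor of neural progenitors, was at 1.06, 6.99, 2.04, 3.42 and 8.97 FPKM in the earlier and 15.1, 70.6, 106 and 54.1 FPKM in the later window (log2 difference 3.45 ± 0.58 SE, adjusted p = 0.0018). *Sox21*, a transcription factor of the neural plate, was at 0.788, 0.877, 0.469, 0.89 and 0.933 FPKM and 3.22, 23.9, 27.2 and 14.99 FPKM (log2 difference 3.05 ± 0.46 SE, adjusted p = 0.0014). Windows that did not overlap were a condition of this list. For both genes the sample of 84 h was the lowest of the later 4.

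The 10 largest falls were *Spp1*, *Dnmt3l*, *Rpl10l*, *Rpl39l*, *Ccno*, *Tcf15*, *Pla2g10*, *Wt1*, *BC033916* and *Dppa2*, with log2 differences from -2.77 to -2.22. *Spp1*, which encodes the secreted phosphoprotein osteopontin, went from 334, 275, 120.3, 57.4 and 71.6 FPKM to 46.4, 8.71, 6.98 and 42.4 FPKM (log2 difference -2.77 ± 0.68 SE, adjusted p = 0.00837). *Tcf15*, a bHLH factor of epiblast-primed cells, was at 79.98, 59.9, 56.9, 69.8 and 47.4 FPKM in the earlier window and 29.2, 10.1, 2.97 and 20.4 FPKM in the later one (log2 difference -2.27 ± 0.48 SE, adjusted p = 0.00426). *Rpl10l* and *Rpl39l* are retrocopies of ribosomal protein genes, so reads of their parent genes could be counted in them and their values are uncertain.

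Pluripotency genes fell in part. Of 26 genes of the core and naive network, all tested, 11 fell, 1 rose and 14 did not pass, with a median difference of -0.63 against 0.05 for all genes tested. *Pou5f1* was at 524, 477, 516, 449.6 and 474 FPKM in the earlier window and 387, 187, 114 and 221 FPKM in the later one (log2 difference -1.23 ± 0.27 SE, adjusted p = 0.00476). *Utf1*, a chromatin factor of pluripotent cells, was at 429.5, 416, 430.4, 345 and 346 FPKM and then 206, 122, 38.97 and 131 FPKM (log2 difference -1.87 ± 0.37 SE, adjusted p = 0.00328). The windows did not overlap for either gene, and neither was gone at 106 h. *Dppa2* (log2 difference -2.22 ± 0.35 SE, adjusted p = 0.00149) and *Dppa4* (log2 difference -1.87 ± 0.35 SE, adjusted p = 0.00266), which form a chromatin-binding pair, fell as well, as did *Fgf4* (log2 difference -1.88 ± 0.38 SE, adjusted p = 0.00368), the main FGF ligand of ES cells. The gene that rose was *Lin28b* (log2 difference 0.52 ± 0.16 SE, adjusted p = 0.0211), an inhibitor of let-7 maturation, and its call was lost without the sample of 103 h (adjusted p = 0.0574).

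Other members of the network did not pass. *Nanog* was at 89.1, 66.6, 36.3, 60.6 and 80.6 FPKM and 142, 82.6, 49.7 and 87.96 FPKM (log2 difference 0.40 ± 0.30 SE, adjusted p = 0.297), highest of all 9 samples at 84 h. *Sox2*, which serves both pluripotent and neural cells, was at 129, 111, 87.4, 89.1 and 72.2 FPKM and 86.4, 69.1, 58.7 and 102 FPKM (log2 difference -0.30 ± 0.19 SE, adjusted p = 0.208), and passed in the first series alone (-0.65, adjusted p = 0.0305). For *Zfp42*, values of 196, 128, 64.6, 68.9 and 67.9 FPKM and 76.5, 25.9, 21.04 and 73.4 FPKM gave a log2 difference -1.16 ± 0.45 SE, adjusted p = 0.0578. Its 2 later first-series samples were the lowest of the 9, while the 2 later parallel samples lay within the earlier range. *Klf4* (3.32, 4.27, 0.874, 0.749 and 2.76 FPKM and then 3.14, 0.456, 0.729 and 4.02 FPKM) and *Esrrb* (35, 25.6, 13, 16.2 and 17.4 FPKM and then 24.8, 6.83, 8.03 and 27.5 FPKM) showed the same division, with the samples of 92 and 103 h lowest and those of 84 and 106 h within the earlier range. *Zfp42* passed without the sample of 84 h (-1.44, adjusted p = 0.0257), without that of 106 h (-1.42, 0.0387) and in the first series alone (-1.99, 0.0144).

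Among 24 genes of the formative and primed epiblast, 11 fell (45.8%) and 7 rose (29.2%), against 18.9% and 28.4% of all genes tested. *Foxd3* (log2 difference -2.10 ± 0.33 SE, adjusted p = 0.00151), *Tcf15*, *Dnmt3a* and *Dnmt3l* had the largest falls. *Fgf5*, the classical epiblast marker, was at 10.04, 19.4, 35.1, 20.1 and 24 FPKM in the earlier and 25.9, 16.6, 7.67 and 18.9 FPKM in the later window (log2 difference -0.33 ± 0.36 SE, adjusted p = 0.479). It was lowest at 103 h, and the 2 windows overlapped. *Otx2*, needed for both epiblast and forebrain, fell by a small amount (log2 difference -0.43 ± 0.13 SE, adjusted p = 0.0217), a call that was lost without the sample of 42.5 h (adjusted p = 0.0506). *Zic2* (log2 difference 0.02 ± 0.14 SE, adjusted p = 0.922) did not pass. The members that rose were *Wnt8a*, *Fgf8*, *Sox3*, *Car14*, *Tead2*, *Sox4* and *Sall2*, of which *Sox3* (log2 difference 1.28 ± 0.23 SE, adjusted p = 0.00229) is also a gene of the neural plate.

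The enzymes that place new DNA methylation fell. *Dnmt3a* was at 98.9, 104, 115, 93.5 and 68.9 FPKM and 36.5, 28.1, 15.9 and 23.2 FPKM (log2 difference -1.89 ± 0.21 SE, adjusted p = 0.00105). *Dnmt3l*, the catalytically inactive partner, was at 87.2, 68.7, 65.98, 38.8 and 29.4 FPKM and 17.9, 4.83, 3.42 and 13.3 FPKM (log2 difference -2.59 ± 0.45 SE, adjusted p = 0.002). *Dnmt3b* differed within the earlier window, from 192 FPKM at 34 h to 494 FPKM at 42.5 h, and was at 231, 197, 72.1 and 113 FPKM in the later window (log2 difference -1.31 ± 0.35 SE, adjusted p = 0.0121), with windows that overlapped and a call that was lost in the first series alone (adjusted p = 0.0555). *Tet1*, which oxidises methylcytosine, fell (log2 difference -1.34 ± 0.27 SE, adjusted p = 0.00356) and *Tet3* rose (log2 difference 1.03 ± 0.27 SE, adjusted p = 0.0106). The maintenance enzyme *Dnmt1* was at a mean of 63.2 and 62.8 FPKM (-0.01 ± 0.05 SE, adjusted p = 0.909). In all, 6 of 17 genes of DNA methylation fell (35.29%) and 3 rose (17.65%), against 18.9% and 28.4% of all genes tested.

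**Figure D2:**
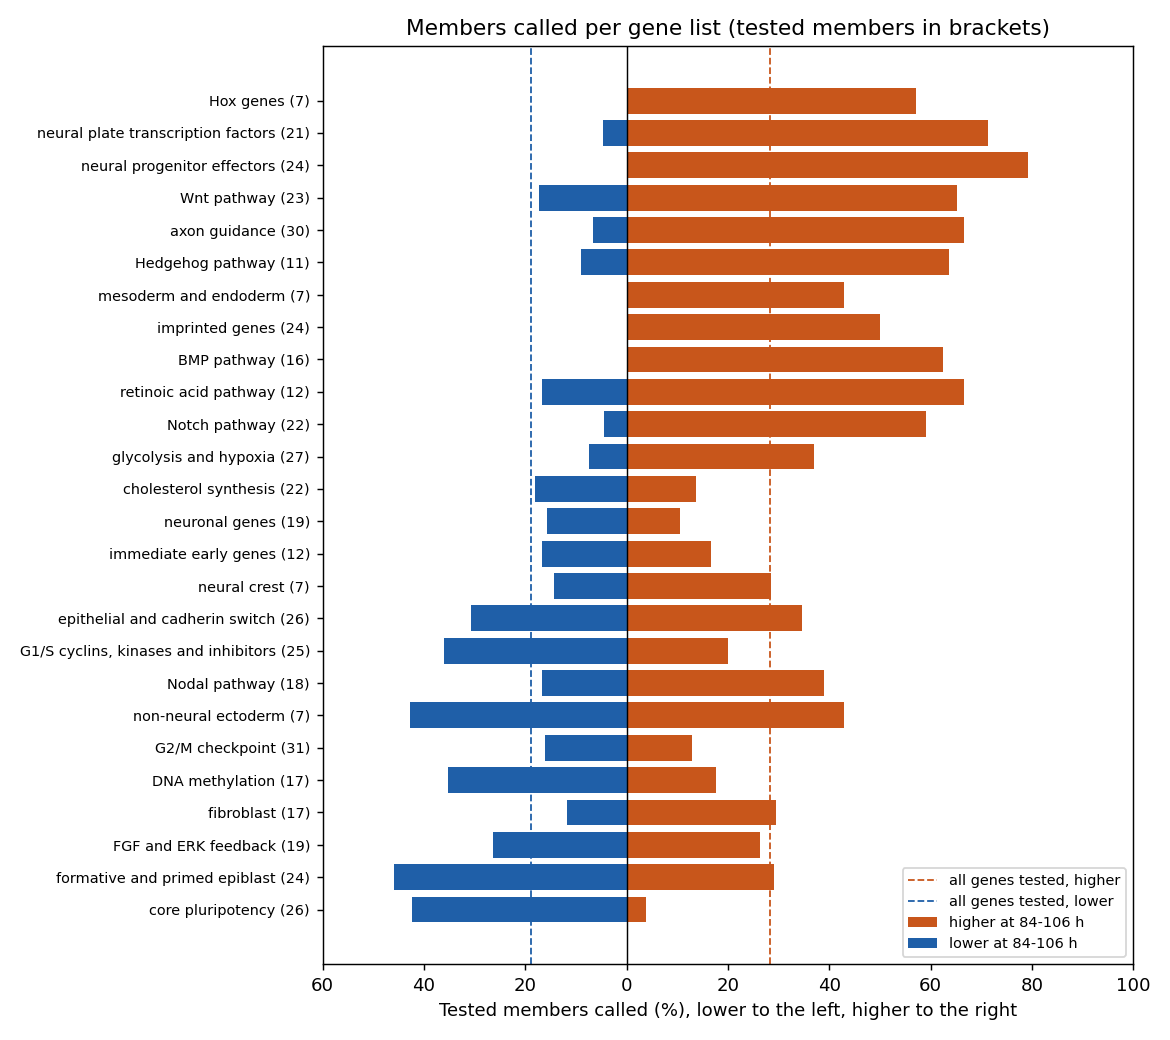
Share of the tested members of 26 gene lists called lower (left) and higher (right) at 84–106 h, in percent of the tested members, whose number is in brackets. Dashed lines mark the shares over all genes tested, 18.9% lower and 28.4% higher; lists are ordered by their median log2 difference, from -0.63 for core pluripotency to 1.57 for the 7 tested Hox genes, 6 of which entered only with the help of later samples.

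Many transcription factors of the neural plate rose. Of 45 listed genes 39 had a row and 21 could be tested, and 15 of these rose while 1, *Otx2*, fell. As 7 of the 21 passed the limit for testing only with the help of later samples, this share is no measure of the whole list. *Sox1*, the earliest factor restricted to neuroectoderm, was at 4.03, 2.85, 2.28, 9.63 and 3.96 FPKM in the earlier and 11.4, 44.7, 51.4 and 39.5 FPKM in the later window (log2 difference 2.71 ± 0.44 SE, adjusted p = 0.00164). *Zfp521*, which drives the epiblast to neural step, was at 0.346, 0.407, 0.502, 0.836 and 1.00 FPKM and 2.77, 8.67, 10.6 and 6.64 FPKM (log2 difference 2.23 ± 0.29 SE, adjusted p = 0.00105). Both rose in all 4 later samples, with 84 h lowest. *Pax6*, a regulator of neural progenitors, was at 5.82, 5.83, 3.76, 6.43 and 6.62 FPKM and 6.36, 24.4, 18.2 and 11.7 FPKM (log2 difference 1.15 ± 0.31 SE, adjusted p = 0.0125), and its value at 84 h lay within the earlier range. *Meis2* (log2 difference 2.47 ± 0.29 SE, adjusted p = 0.00105), *Meis1* (log2 difference 2.37 ± 0.43 SE, adjusted p = 0.00229), *Sp8* (log2 difference 2.11 ± 0.20 SE, adjusted p = 0.00105), *Irx3* (log2 difference 1.95 ± 0.19 SE, adjusted p = 0.00105) and *Lhx2* (log2 difference 1.88 ± 0.44 SE, adjusted p = 0.00651) rose too.

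Effector genes of neural progenitors rose in 19 of 24 tested members, and 0 fell. *Cxcr4* and 3 others of the 24 entered the test only with the help of later samples. *Mest* (log2 difference 1.90 ± 0.33 SE, adjusted p = 0.00189), *Plagl1* (log2 difference 1.99 ± 0.28 SE, adjusted p = 0.00127), *Msi1*, an RNA-binding protein of progenitors (log2 difference 1.88 ± 0.35 SE, adjusted p = 0.00246), and *Cxcr4*, a chemokine receptor (log2 difference 2.23 ± 0.47 SE, adjusted p = 0.0042), were among them. *Nes*, the intermediate filament nestin, already ranged from 4.30 FPKM at 34 h to 17.8 FPKM at 54.5 h in the earlier window and was at 19.8, 25.8, 20.8 and 19.9 FPKM later (log2 difference 1.00 ± 0.34 SE, adjusted p = 0.0329). Its call was lost without any 1 of the samples of 38, 42.5, 92, 103 or 106 h (adjusted p from 0.0501 to 0.0847) and in the first series alone (adjusted p = 0.0932). Of 19 tested genes of neurons, 7 of which entered the test only with the help of later samples, 2 rose (*Stmn3* and *Dpysl3*), 3 fell (*Neurod1*, *Ina* and *Elavl2*) and 14 did not pass, *Tubb3* among them (log2 difference 0.34 ± 0.28 SE, adjusted p = 0.33). In the first series alone 7 of the neuronal genes rose, *Tubb3* included (0.74, adjusted p = 0.0125). The corrected table holds 16 genes, *Dcx*, *Mapt* and *Elavl4* among them, that were at or below 0 in both earlier parallel samples and above 1 FPKM in all 3 earlier first-series samples. None of these 16 was called.

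Adhesion molecules changed in both directions. *Cdh1* was at 158, 172, 209, 181 and 165 FPKM in the earlier and 124, 79.97, 31.6 and 82.7 FPKM in the later window (log2 difference -1.29 ± 0.30 SE, adjusted p = 0.007). *Cdh2* was at 5.01, 5.74, 7.95, 8.21 and 6.47 FPKM and 11.7, 40.6, 51.99 and 31.7 FPKM (log2 difference 2.03 ± 0.35 SE, adjusted p = 0.00188). Neither gene's windows overlapped, and at 103 h *Cdh2* exceeded *Cdh1* in FPKM, at 52.0 against 31.6, while *Cdh1* was the higher of the pair in the other 8 samples. *Epcam* (log2 difference -1.10 ± 0.27 SE, adjusted p = 0.0087) and *Grhl2*, an activator of epithelial genes (log2 difference -1.71 ± 0.24 SE, adjusted p = 0.00118), fell, and *Zeb2*, a repressor of *Cdh1*, rose (log2 difference 1.89 ± 0.26 SE, adjusted p = 0.00122). Keratins went the other way: *Krt8* was at 3.99, 3.47, 7.21, 10.48 and 6.83 FPKM and 13.2, 24.2, 47.5 and 49.6 FPKM (log2 difference 2.14 ± 0.39 SE, adjusted p = 0.00247), and *Krt19* at 2.12, 2.18, 2.62, 2.01 and 2.47 FPKM and 5.98, 6.49, 13.1 and 20.8 FPKM (log2 difference 1.78 ± 0.29 SE, adjusted p = 0.00171). Of 26 tested epithelial and cadherin genes, 9 rose (34.6%) and 8 fell (30.8%), against 28.4% and 18.9% of all genes tested. Of the 26, 2 entered the test only with the help of later samples.

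Notch pathway genes rose in 13 of 22 tested members, with 1 fall. Of the 22, 1 member, *Hes5*, entered the test only with the help of later samples. The receptors *Notch1*, *Notch2* and *Notch3* and the ligands *Jag1* and *Dll3* rose, *Notch3* by the most (log2 difference 1.06 ± 0.16 SE, adjusted p = 0.00145), and *Dll1* did not pass (log2 difference -0.33 ± 0.34 SE, adjusted p = 0.455). The targets *Nrarp* (log2 difference 1.93 ± 0.25 SE, adjusted p = 0.00107), *Hes1* (log2 difference 0.97 ± 0.19 SE, adjusted p = 0.0029) and *Hey1* (log2 difference 0.79 ± 0.20 SE, adjusted p = 0.00934) rose. *Hes5*, a target that keeps progenitors from differentiating, was at 0.533, 0.562, 0.533, 0.814 and 0.688 FPKM and 1.33, 4.13, 15.4 and 4.95 FPKM (log2 difference 1.85 ± 0.43 SE, adjusted p = 0.00632), the 103 h sample being the highest. The fall was in *Rbpj* (log2 difference -0.57 ± 0.18 SE, adjusted p = 0.0267), the DNA-binding partner of Notch, and its call was lost without the samples of 38, 54.5, 92 or 103 h (adjusted p from 0.0529 to 0.0752). The promoter of *Hes5* is shown because it carries the sequence that RBPJ binds. The 250 bases before its start (RefSeq, GRCm38.p6, chr4:154960673-154960922, plus strand) are, with both matches to TGGGAA on either strand in capitals:
Hes5: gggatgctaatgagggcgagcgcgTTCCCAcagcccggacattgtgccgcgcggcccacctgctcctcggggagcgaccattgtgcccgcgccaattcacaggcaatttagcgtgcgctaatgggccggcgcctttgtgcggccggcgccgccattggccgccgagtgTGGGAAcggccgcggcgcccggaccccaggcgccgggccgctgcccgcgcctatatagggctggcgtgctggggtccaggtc
The matches began 226 and 82 bases before the start. This motif was found in 21.6% of 32851 such windows, so its presence is common.

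BMP pathway genes rose in 10 of 16 tested members, 3 of which entered the test only with the help of later samples, and 0 fell. The Id genes, which block bHLH factors and are direct targets of BMP signals, carried the largest values. *Id1* was at 8.90, 6.57, 5.52, 5.31 and 5.76 FPKM and 12.6, 15.7, 25.4 and 34.6 FPKM (log2 difference 1.56 ± 0.26 SE, adjusted p = 0.00174). *Id3* was at 13.5, 8.91, 4.21, 4.39 and 9.70 FPKM and then 27.3, 13.3, 88.9 and 38.8 FPKM (log2 difference 2.04 ± 0.48 SE, adjusted p = 0.00709), with windows that overlapped because the sample of 92 h lay below that of 34 h, and its call was lost in the first series alone (adjusted p = 0.0552). *Id2* (log2 difference 1.56 ± 0.27 SE, adjusted p = 0.00203), the ligand *Bmp7* (log2 difference 1.34 ± 0.25 SE, adjusted p = 0.00246) and the mediators *Smad1* (log2 difference 0.84 ± 0.14 SE, adjusted p = 0.00159) and *Smad5* (log2 difference 0.60 ± 0.11 SE, adjusted p = 0.0026) also rose, and *Bmp4* did not pass (log2 difference -0.23 ± 0.23 SE, adjusted p = 0.429).

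In the Nodal pathway 7 of 18 tested genes rose and 3 fell, and the share that fell was close to that of all genes. Of the 18, 1 entered the test only with the help of later samples. The rises included *Fst*, the signal transducer *Smad3* (log2 difference 1.44 ± 0.23 SE, adjusted p = 0.00154), the convertase *Furin* (log2 difference 0.97 ± 0.14 SE, adjusted p = 0.00132) and the receptors *Acvr1b*, *Acvr2a* and *Acvr2b*. The coreceptor *Tdgf1* was at 240.1, 239.6, 234, 193 and 219 FPKM and 205, 48.8, 24.8 and 76.02 FPKM (log2 difference -1.75 ± 0.46 SE, adjusted p = 0.0111), and its sample of 84 h lay in the earlier range. The feedback inhibitors *Skil* (log2 difference -1.18 ± 0.28 SE, adjusted p = 0.00741) and *Smad7* (log2 difference -0.94 ± 0.29 SE, adjusted p = 0.0221) fell, the latter call being lost without the sample of 92 h (adjusted p = 0.0573). *Nodal* itself was at 33.4, 32.3, 20.7, 24.8 and 31.6 FPKM and 35.3, 17.7, 8.97 and 17.5 FPKM (log2 difference -0.63 ± 0.30 SE, adjusted p = 0.111), and passed without the sample of 84 h (-0.95, adjusted p = 0.00718). Its antagonists *Lefty1* (138, 109, 65.3, 98.5 and 135 FPKM and then 174, 139, 17.9 and 67.7 FPKM) and *Lefty2* (log2 difference -0.24 ± 0.37 SE, adjusted p = 0.622) did not pass and were lowest at 103 h. *Fst*, which traps activin, was at 0.774, 3.67, 3.38, 2.59 and 13.1 FPKM and 31.9, 29.1, 36.7 and 38.7 FPKM (log2 difference 2.96 ± 0.46 SE, adjusted p = 0.00145).

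Wnt pathway genes rose in 15 of 23 tested members and fell in 4, and 4 of the 23 entered the test only with the help of later samples. The falls numbered 1 without the sample of 92 h and 2 without that of 103 h. The ligand *Wnt8a* was at 4.43, 5.71, 5.41, 10.6 and 20.8 FPKM and 70.4, 33.8, 28.1 and 18.99 FPKM (log2 difference 1.95 ± 0.44 SE, adjusted p = 0.00595), and was highest at 84 h. The secreted antagonists *Sfrp1* (log2 difference 2.36 ± 0.41 SE, adjusted p = 0.00206) and *Sfrp2* (log2 difference 1.31 ± 0.23 SE, adjusted p = 0.00193), the receptors *Fzd3* (log2 difference 1.76 ± 0.34 SE, adjusted p = 0.00289) and *Fzd10* (log2 difference 1.56 ± 0.24 SE, adjusted p = 0.00147), and the feedback targets *Axin2* (log2 difference 1.35 ± 0.26 SE, adjusted p = 0.00283) and *Nkd1* (log2 difference 1.71 ± 0.32 SE, adjusted p = 0.00259) rose. Another feedback target, *Notum*, fell (log2 difference -1.21 ± 0.36 SE, adjusted p = 0.0204), a call lost without the samples of 92 or 103 h (adjusted p = 0.0623 and 0.0523), and so did *Lef1* (log2 difference -0.53 ± 0.16 SE, adjusted p = 0.0194), lost without 92 h (adjusted p = 0.0567) and without 106 h, and also in the first series alone (adjusted p = 0.121).

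FGF ligands changed in both directions. *Fgf4* fell from 44.6, 43.6, 41.8, 29.6 and 25.8 FPKM to 19.8, 7.88, 3.25 and 12.4 FPKM, while *Fgf8* rose from 3.36, 3.97, 6.43, 6.92 and 8.19 FPKM to 21.1, 15.4, 18.6 and 15.6 FPKM (log2 difference 1.51 ± 0.22 SE, adjusted p = 0.00127). *Fgf15* rose as well (log2 difference 0.67 ± 0.20 SE, adjusted p = 0.0184). *Fgf18* fell (log2 difference -0.76 ± 0.21 SE, adjusted p = 0.0144). *Fgf17* did not pass (log2 difference -0.57 ± 0.29 SE, adjusted p = 0.133). The receptor *Fgfr1* rose (log2 difference 0.94 ± 0.12 SE, adjusted p = 0.00105). Of the transcription factors and inhibitors that report ERK activity, *Etv4*, *Etv5* (log2 difference -0.97 ± 0.20 SE, adjusted p = 0.00415) and *Spry4* (log2 difference -1.28 ± 0.34 SE, adjusted p = 0.0113) fell, *Spry2* rose (log2 difference 0.57 ± 0.11 SE, adjusted p = 0.00274) and *Dusp6* did not pass (log2 difference -0.01 ± 0.22 SE, adjusted p = 0.962). In all, 5 of 19 tested genes rose (26.3%) and 5 fell (26.3%), against 28.4% and 18.9% of all genes tested. Hedgehog pathway genes rose in 7 of 11 tested members, and 1 of the 11 entered the test only with the help of later samples. Among the rises were the coreceptors *Boc* (log2 difference 1.86 ± 0.35 SE, adjusted p = 0.00264) and *Gas1* (log2 difference 1.73 ± 0.22 SE, adjusted p = 0.00105) and the transducer *Smo* (log2 difference 1.18 ± 0.22 SE, adjusted p = 0.00246). The target *Gli1* did not pass (log2 difference -0.58 ± 0.43 SE, adjusted p = 0.283).

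Retinoic acid genes rose in 8 of 12 tested members, 2 of which entered the test only with the help of later samples, and fell in 2, the receptors *Rarg* (log2 difference -1.40 ± 0.26 SE, adjusted p = 0.00251) and *Rara* (log2 difference -0.65 ± 0.17 SE, adjusted p = 0.0109). The binding protein *Crabp1* was at 30.4, 29.3, 24.6, 29.2 and 21.9 FPKM and 71.3, 449, 183 and 491 FPKM (log2 difference 3.06 ± 0.47 SE, adjusted p = 0.00147). *Crabp2* was at 8.20, 11.97, 13.1, 9.35 and 13.6 FPKM and 26.8, 91.4, 96.4 and 96.8 FPKM (log2 difference 2.55 ± 0.35 SE, adjusted p = 0.00117). *Cyp26a1*, which degrades retinoic acid and is one of its direct targets, was at 1.15, 0.586, 0.77, 0.947 and 0.604 FPKM and 2.22, 3.48, 5.74 and 14.2 FPKM (log2 difference 1.79 ± 0.37 SE, adjusted p = 0.00375). Its promoter is shown for the paired half-sites that retinoic acid receptors bind. The 250 bases before its start (RefSeq, GRCm38.p6, chr19:37697558-37697807, plus strand) are, with the match to AGTTCA repeated directly after 5 bases, which lies on the minus strand, in capitals:
Cyp26a1: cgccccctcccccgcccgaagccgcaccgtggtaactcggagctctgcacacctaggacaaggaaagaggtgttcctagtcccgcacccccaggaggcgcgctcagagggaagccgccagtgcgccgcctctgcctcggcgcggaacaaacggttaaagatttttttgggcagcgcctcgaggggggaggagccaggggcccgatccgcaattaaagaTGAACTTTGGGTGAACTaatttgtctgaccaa
The match began 32 bases before the start, and 7 of 32851 windows (0.0213%) held one on either strand. The matched letters do not overlap a TGGGAA match.

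Of 17 Hox genes with a row 7 could be tested, and 6 of these passed the limit for testing only with the help of later samples, so their count is a description. The genes called were *Hoxb2* (log2 difference 2.77 ± 0.40 SE, adjusted p = 0.00132), *Hoxa2* (log2 difference 2.14 ± 0.31 SE, adjusted p = 0.00133), *Hoxb3* (log2 difference 1.67 ± 0.39 SE, adjusted p = 0.00628) and *Hoxb1* (log2 difference 1.57 ± 0.25 SE, adjusted p = 0.00149), all higher. *Hoxb2* was at 1.50, 0.0855, 1.12, 1.83 and 1.14 FPKM and 7.94, 22.5, 6.39 and 22.7 FPKM. For *Hoxb2* the sample of 103 h was the lowest of the later window, as it was for *Olig3* (17.9, 17.9, 5.28 and 13.4 FPKM), whereas for *Fam181b* (1.43, 9.99, 33.5 and 18.9 FPKM), *Frzb* (2.71, 6.38, 29.8 and 14.6 FPKM) and *Cxcr4* (1.49, 5.68, 20.2 and 5.74 FPKM) it was the highest. *Crabp1* was lower at 103 h than at 92 and 106 h.

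Some genes of other germ layers rose. Of 28 listed mesoderm and endoderm genes 14 had a row and 7 could be tested; 3 rose, 0 fell and 4 did not pass, and 5 rose without the sample of 84 h. Of the 3, *Foxa2* and *Mixl1* entered the test only with the help of later samples, so the count is a description. *T* (brachyury), a gene of the primitive streak, was at 2.31, 0, 2.40, 2.89 and 1.69 FPKM and 12.7, 4.02, 11.3 and 27.6 FPKM (log2 difference 2.26 ± 0.50 SE, adjusted p = 0.0052). *Foxa2*, of endoderm and the floor plate, was at 1.70, 0, 2.00, 1.89 and 0.0178 FPKM and 3.96, 2.28, 5.11 and 10.3 FPKM (log2 difference 1.62 ± 0.44 SE, adjusted p = 0.0134), and *Mixl1* at 0.999, 0.433, 0.661, 0.892 and 1.21 FPKM and 4.04, 0.804, 2.98 and 3.50 FPKM (log2 difference 0.97 ± 0.28 SE, adjusted p = 0.0159). The parallel series had the larger differences, 3.59 against 1.16 for *T* and 2.89 against 0.65 for *Foxa2*, and in the first series alone neither *Foxa2* nor *Mixl1* passed (adjusted p = 0.0959 and 0.229). These larger differences start from parallel values at or near 0, for *T* at 38 h and for *Foxa2* at 38 and 60 h. Values that the batch correction left below 0 had been set to 0, so the size of these differences is uncertain. At 106 h *T* was above *Pax6* in FPKM, at 27.6 against 11.7. These levels stood beside the neural rises in the same populations, and their part in the other results was not tested. Of 7 tested genes of the longer non-neural ectoderm list 3 rose, the keratins *Krt8*, *Krt18* and *Krt19*, which simple epithelia share. Another 3 fell, *Six4* and *Foxi3* among them. The call of *Foxi3* was lost without the sample of 38, 42.5, 60, 103 or 106 h (adjusted p from 0.0513 to 0.0724) and in the first series alone (0.103). The sum over the list's members went from 56.2–77.7 to 59.5–137 FPKM. Neural crest genes had 2 rises (28.6%) and 1 fall (14.3%) among 7 tested, against 28.4% and 18.9% of all genes tested, with 1 rise without the sample of 38, 60 or 106 h. Of the 7, 2 were above 1 FPKM in no earlier sample and entered the test only through later samples, so this count is a description. Of 17 fibroblast genes tested 5 rose (29.4%) and 2 fell (11.8%), against 28.4% and 18.9% of all genes tested. The rises numbered 3 without the sample of 103 h, and 2 of the 17 entered the test only with the help of later samples. The rises were in the contractile genes *Tagln* (log2 difference 2.25 ± 0.65 SE, adjusted p = 0.0169, and 0.0651 in the first series alone) and *Acta2* (lost without 103 h, adjusted p = 0.0593) and in *Fstl1*, *Fbn1* and *Col5a1*. *Dcn* (log2 difference -1.62 ± 0.31 SE, adjusted p = 0.00291) and *Col3a1* (log2 difference -1.10 ± 0.29 SE, adjusted p = 0.012) fell.

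Imprinted genes and guidance molecules also rose. Of 24 tested imprinted genes 12 rose and 0 fell, with 1 fall without the sample of 34 or 84 h. Of the 24, 2 entered the test only with the help of later samples. *Mest* was at 81.01, 85.3, 91.6, 109.7 and 87.7 FPKM and 139, 519, 485 and 386 FPKM, *Peg12* at 1.58, 0.996, 1.34, 1.36 and 1.12 FPKM and 3.05, 14.03, 25.2 and 18.6 FPKM (log2 difference 2.55 ± 0.44 SE, adjusted p = 0.00191), and *Gnas* at 104, 133, 139.5, 162 and 179.5 FPKM and 216, 394, 409 and 348 FPKM (log2 difference 1.23 ± 0.20 SE, adjusted p = 0.00169). *Peg10* and its neighbour *Sgce* rose by 1.43 and 1.67. Axon guidance genes rose in 20 of 30 tested members, 7 of which entered the test only with the help of later samples, and fell in 2, *Unc5b* and *Sema4d*. The ephrin receptor *Epha7* was at 1.21, 1.25, 1.39, 2.33 and 3.34 FPKM and 6.12, 21.6, 24.3 and 21.5 FPKM (log2 difference 2.64 ± 0.37 SE, adjusted p = 0.00118), and the ligands *Efnb1* (log2 difference 2.45 ± 0.25 SE, adjusted p = 0.00105) and *Efna5* (log2 difference 2.18 ± 0.37 SE, adjusted p = 0.00182) rose beside it.

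The genes that the study singles out in its text were chosen on these samples, so their count is not independent evidence: of 22 tested, 11 rose and 5 fell. *Fyn*, a Src family kinase, was at 4.24, 5.10, 7.02, 6.81 and 6.82 FPKM and 7.75, 14.1, 14.9 and 11.01 FPKM (log2 difference 0.87 ± 0.19 SE, adjusted p = 0.00536), and *Sox11* at a log2 difference 1.61 ± 0.28 SE, adjusted p = 0.00201. *Gapdh* (log2 difference 0.06 ± 0.11 SE, adjusted p = 0.676) and *Actb* (log2 difference -0.25 ± 0.10 SE, adjusted p = 0.0636) did not pass. *Actb* passed without the sample of 38 h (adjusted p = 0.034), without that of 60 h (0.0375) and in the first series alone (0.0399).

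Samples outside the windows were set on the scale between them, with the mean of 34–60 h at 0% and that of 84–106 h at 100%. Over the 574 genes called higher by at least 1, the median position was 47.3% at 68 h and 83.3% at 80 h in the first series, and 59.0% at 84 h in the parallel series, a sample that helped to set the scale. For the 318 genes called lower the same values were 53.2%, 84.0% and 60.9%. The parallel sample of 84 h thus lay below the earlier first-series sample of 80 h in both directions. After the windows the medians went on to between 132 and 158% for the rises and between 92.7 and 170% for the falls at 126 to 216 h.

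**Figure D3:**
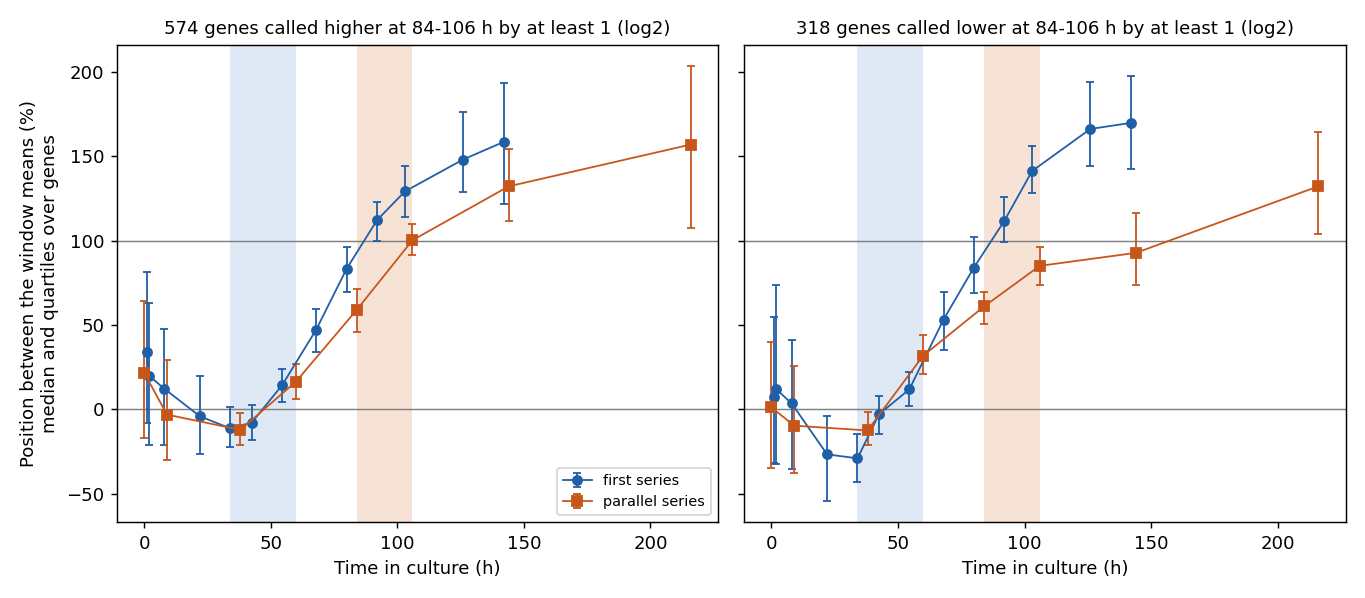
Position of each SFEB population between the window means for the genes called higher (left) or lower (right) by at least 1 on the log2 scale. The horizontal axis is time in hours, points are medians over genes in percent, bars are quartiles over genes and not sample error; first-series samples of 68 and 80 h sit at 47.3% and 83.3% for the rises, and the parallel sample of 84 h at 59.0%.

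Most changes went further after 106 h, and some turned back. Of the 574 rises, 352 (61.3%) were higher again by more than 0.5 at 126–216 h, 181 (31.5%) stayed within 0.5 and 41 (7.14%) were lower by more than 0.5. Of the 318 falls, 183 (57.5%) went lower, 121 (38.1%) stayed and 14 (4.40%) came back up. The largest returns among rises that reached 10 FPKM were in *Fgf8*, from a mean of 17.7 FPKM at 84–106 h to 1.99 FPKM at 126–216 h, and in *Olig3*, *Il17rd*, *Fst*, *Tagln* and *Krt8*. *Hes5* went on, from at most 15.4 FPKM at 103 h to between 29.6 and 74.99 FPKM. *Tubb3*, which was not called between the windows, reached 223 to 511 FPKM at 126–216 h.

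Another culture of R1 ES cells, an adherent monoculture in N2B27 medium, was compared over nearly the same hours (35.5, 41.5 and 53.5 h against 92.5 and 101.5 h, 1 library each). Of 12210 genes tested there 3130 (25.6%) were called, 2023 higher (16.6%) and 1107 lower (9.07%). This count rested on few samples: it was 293 without the sample of 101.5 h, 312 without 92.5 h, 1061 without 35.5 h and 6818 without 53.5 h. Of the SFEB rises of at least 1, 568 were tested in the monoculture, 560 (98.6%) were higher there too and 507 were called. Of 305 such falls 279 (91.5%) were lower and 221 were called. Over all 11590 genes tested in both cultures 71.5% had the same sign.

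*Ptn* (4.67), *Crabp2* (4.12), *Hes5* (4.00), *Crabp1* (3.94) and *Sfrp1* (3.80) had large rises in the monoculture, and *Dnmt3l* (-2.57), *Dnmt3a* (-1.75) and *Pou5f1* (-1.87) large falls. Some calls were unlike those in SFEB. Of 18 neuronal genes tested in the monoculture 12 were called higher and 1 lower (median 1.09). Naive genes were called lower in the monoculture (*Esrrb* -3.21, *Zfp42* -2.93, *Klf2* -2.77, *Klf4* -2.14), and none of these was called in SFEB with all 9 samples. The monoculture times lay nearest to those of the first SFEB series. In limma on that series alone *Zfp42* was called lower (-1.99, adjusted p = 0.0144), and more neuronal genes were called higher than with all 9 samples, *Tubb3* among them (0.74, adjusted p = 0.0125). *Lefty1* (1.67) and *Lefty2* (1.06) were called higher there, from 9.37–12.2 to 34.2–39.7 FPKM for *Lefty1*. *T* and *Foxa2* were at most 0.582 and 0.239 FPKM in the 5 monoculture samples, and *Krt19* was at 0.939–1.52 FPKM. The tables were normalized separately, so these differences between cultures were not tested.

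**Figure D4:**
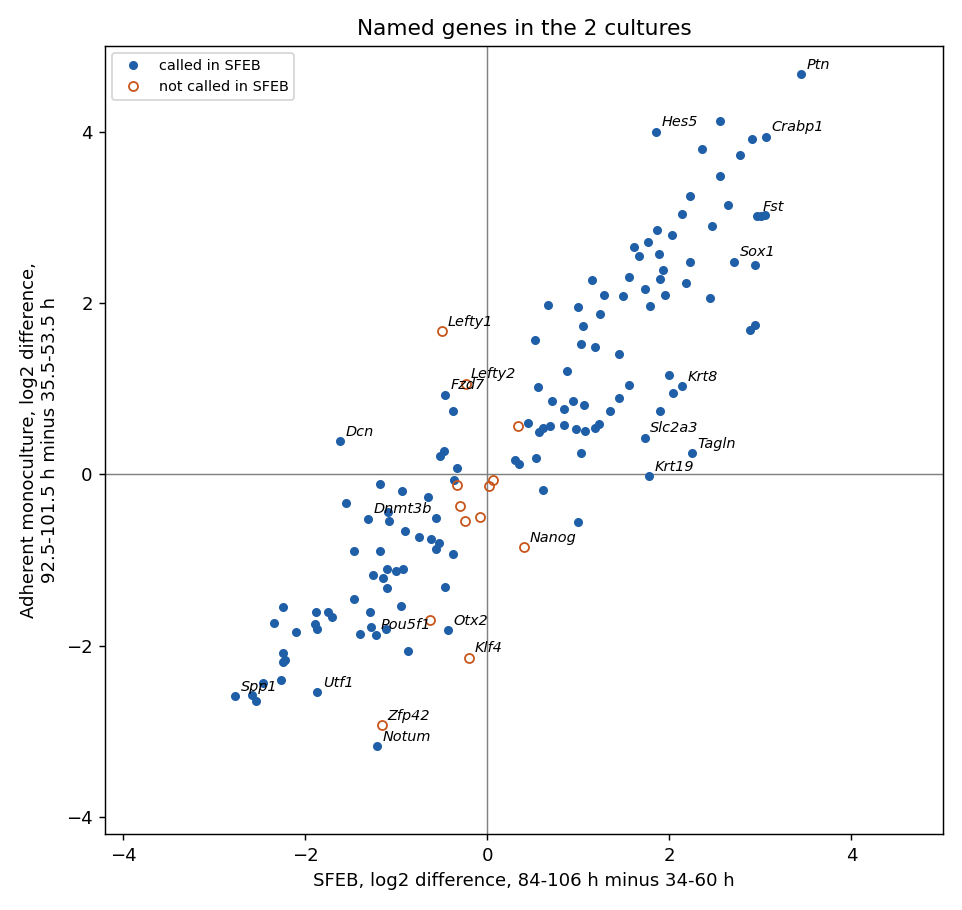
Log2 difference of the named genes in SFEB (horizontal) and in adherent monoculture (vertical), both on log2(FPKM + 1), for genes tested in both. Filled points were called in SFEB and open points were not; *Ptn* lies at 3.45 and 4.67, *Lefty1* at -0.50 and 1.67, and *Zfp42* at -1.16 and -2.93.

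Single SFEB cells of the same times as the parallel series, 8 at each of 38, 60, 84 and 106 h, were read as 1 mean per time with no test. Of 505 SFEB rises of at least 1 with a row for the cells, 400 (79.2%) were higher at 84 and 106 h, with a median log2 difference of 0.75 against 0.17 for all genes tested, and of 277 falls 193 (69.7%) were lower, with a median of -0.65, against 42.8% of all genes tested. Mean *Sox1* was 0.442, 0.00136, 0.505 and 20.9 RPKM and mean *Pou5f1* 431, 585, 346 and 188 RPKM. Mean *T* was 121 RPKM at 84 h and 0.0207 to 1.05 RPKM at the other 3 times, and mean *Wnt8a* 100.5 RPKM at 84 h. *Zfp521*, at 2.77 and 6.64 FPKM in the populations of 84 and 106 h, was at 0 in the means of the cells at both times.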

How the data were processed

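RNA-seq of mouse R1 ES cells in SFEB culture was read from a table of FPKM values that the authors deposited after correcting batches with ComBat; the batches are not given in the sources used here. The submitters' processing notes name TopHat2 2.0.8b, Cufflinks 2.1.1 and the builds mm9 and mm10. The correction left 649 values (0.533%) in 290 genes below 0, which were set to 0. Monoculture values were deposited by the authors as FPKM in a separate table, and single-cell values as log10 values, which were converted back to RPKM and averaged per time. All columns were mapped (0 unmapped). The windows were compared with limma 3.58.1 (R 4.3.3; variance trend, Benjamini-Hochberg adjustment over all genes tested) on log2(FPKM + 1), with genes above 1 FPKM in at least 4 of 9 samples (2 of 5 in the monoculture). In simulated data for this comparison (11849 genes) 66% of changes of 0.5, 92% of 1, 98% of 2 and 100% of 4 on the log2 scale were recovered. The FPKM table gives no depth. Promoter sequences came from RefSeq (GRCm38.p6).

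Members and gene lists were chosen with earlier results of these data known. The genes named by rule are the 10 largest rises and falls among called genes with at least 10 FPKM and windows that do not overlap (predicted and microRNA rows left out), up to 3 called members per list and direction, the genes the study singles out, and a fixed set (*Pou5f1*, *Nanog*, *Sox2*, *Cdh1*, *Cdh2*, *Fgf5*, *Nodal*, *Lefty1*, *Lefty2*, *T*, *Foxa2*, *Gapdh*, *Actb*). Further list members were named after their values were seen, to show a pathway's other parts. The alternatives tried were another pseudocount, other filters, quantile normalization, median centring, a series term, no variance trend, each series alone, samples left out or added.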

Additional observations from a re-analysis of the deposited data

Results flagged for a closer look

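In 302 groups of 4 or 5 samples (the 2 windows of each named gene), 10 had a sample that stood apart from the rest of its window by Dixon's 95% criterion; chance alone marks about 1 group in 20. In the earlier window the sample of 42.5 h was low for *Pax6* at 3.76 FPKM (5.82 to 6.62 in the others), *Slc2a3* at 45.5 FPKM (111 to 150.3) and *Sox21* at 0.469 FPKM (0.788 to 0.933). The sample of 60 h was low for *Six4* at 11.7 FPKM (18.8 to 21.1) and *Wt1* at 12.7 FPKM (23.5 to 28.3), and both genes were called lower at 84–106 h. *T* was listed at 0 at 38 h and at 1.69 to 2.89 FPKM in the other 4 earlier samples, and its deposited value at 38 h was below 0. In the later window the sample of 84 h was low for *Crabp2* at 26.8 FPKM (91.4 to 96.8) and *Epha7* at 6.12 FPKM (21.5 to 24.3), both above the whole earlier window. *Otx2* was at 31.8 FPKM at 92 h (45.7 to 48.4), and *Cdkn2a*, which encodes inhibitors of the cell cycle, at 0.225 FPKM at 103 h (3.97 to 4.26). No cause of these values was tested.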

How the results depend on the processing

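The 5603 genes called in SFEB became 3612 when the samples of 68 and 80 h were added to the earlier window and 0 with the parallel series alone (3327 at an unadjusted p below 0.05). Leaving out 1 sample gave 4488 to 5947 genes, and the other settings (pseudocount, filters, scaling, a term for series, no variance trend, first series alone) gave 3938 to 6160. In the monoculture, leaving out 1 sample moved 3130 genes to between 293 and 6818. The 138 called genes among the 151 named by rule had the same direction under every setting in which they were fitted. They were chosen as called and every setting reused samples of these windows, which favours a shared direction. Of them, 138 stayed called with a pseudocount of 0.1, 134 after quantile normalization, 132 after median centring and 128 to 138 without 1 sample. In the first series alone 122 stayed called, and 109 did with 68 and 80 h added. Of the named genes that had not passed, 8 changed sign under some setting. With the parallel series alone the log2 difference was 0.04 for *Klf4*, 0.03 for *Fgf5*, -0.03 for *Zic2*, 0.20 for *Sall4*, 0.07 for *Sox2* and *Lefty2* and -0.24 for *Gapdh*. With 68 and 80 h added it was 0.07 for *Klf4* and -0.08 for *Zic2*. After median centring it was -0.10 for *Zic2* and -0.06 for *Gapdh*, with a series term 0.00 for *Zic2*, and after quantile normalization 0.00 for *Gapdh*. Without 1 sample it ranged from -0.50 to 0.10 for *Klf4*, -0.13 to 0.10 for *Zic2*, -0.91 to 0.16 for *Lefty1*, -0.55 to 0.19 for *Lefty2* and 0.00 to 0.13 for *Gapdh*. The causes were not tested. No paired analysis was possible because the population columns carry no replicate numbers and each sample has its own time; a term for series, the only block both windows share, gave 5766 called genes. Depth is unknown, since the table holds no counts, so no counting error could be given.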

Other observations

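Lists of metabolism and the cell cycle had calls in both directions, against 28.4% of all genes higher and 18.9% lower. Of 27 tested genes of glycolysis and hypoxia 10 rose and 2 fell: the glucose transporters *Slc2a3* (1.73) and *Slc2a1* (1.03) and the growth factor *Vegfa* (1.07) rose, and *Ldhb* (-0.87) and *Pdk1* (-0.95), which holds pyruvate back from the mitochondria, fell. Both transporters were lower again after 106 h, *Slc2a3* at a mean of 163 FPKM at 126–216 h against 343 FPKM at 84–106 h. Among 25 genes of the G1/S transition 9 fell and 5 rose; *Myc* (-1.15), *Cdkn2a* (-1.55) and *Cdkn2b* (-1.18) fell and *Ccnd2*, a D-type cyclin, rose (1.05), with the calls of *Myc* and *Ccnd2* lost in the first series alone (adjusted p = 0.0625 and 0.0937). The call of *Ccnd2* was also lost without the sample of 42.5, 60, 103 or 106 h (adjusted p from 0.0513 to 0.0671), and the list's rises then numbered 3. Of 31 genes of the G2/M checkpoint 4 rose and 5 fell, and the falls numbered 2 without 34 or 92 h, 3 without 38 or 103 h and 19 after median centring. Cholesterol synthesis had 3 rises and 4 falls among 22 tested genes, with 2 falls without the sample of 106 h. Immediate early genes had 2 rises and 2 falls among 12; the rises numbered 1 without 34, 38, 42.5, 92 or 106 h, and the falls 0 without 42.5, 54.5 or 92 h, 1 without 34 or 103 h and 3 without 84 h. The shares called in the G2/M, cholesterol and immediate early lists were at or below those of all genes in both directions.

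Some *Zscan4* genes, which mark a rare state of ES cells that resembles the early embryo, had opposite signs in the 2 cultures; they were chosen for this after their values were seen. Of 5 *Zscan4* genes tested in SFEB 3 were called, all lower, at adjusted p from 0.0329 to 0.0475. Of the genes called in both cultures with an SFEB difference of at least 1, 7 had opposite signs, *Zscan4a*, *Zscan4d*, *Zscan4f*, *Tcstv3*, *Gm5039*, *Gm12794* and *1700030L20Rik*. *Zscan4f* went from a mean of 5.08 to 1.53 FPKM in SFEB (-1.34) and from 0.812 to 4.06 FPKM in the monoculture (1.60). *Tcstv3* had differences of -1.38 and 1.83. *Zscan4* and *Tcstv* genes have near-identical copies that can share reads, so single members are uncertain, and the difference between the cultures was not tested.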
